A study of Mus musculus with 7 samples.

Results

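The 39 genes described here encode proteins that repair DNA or signal its damage. They were chosen by name, with earlier results of these data known. They are genes of homologous recombination, the Fanconi anaemia pathway, end joining, mismatch repair, single-strand break repair and damage checkpoints. All 39 were found among the 53656 gene rows of the deposited count tables. Messenger RNA was measured by RNA-seq in 7 libraries of OT1 cells, CD8 T cells whose transgenic receptor recognises an ovalbumin peptide. The tumours, labelled B16-OVA-GP61, arise from a melanoma line of the mouse named for ovalbumin and the GP61 epitope, and the cells were isolated from them by sorting on CD8 and on CD45.1, a congenic allele of the leukocyte antigen CD45. In 3 libraries the tumours came from mice with SMARTA cells, CD4 T cells whose receptor transgene recognises GP61, and in 4 libraries from mice without SMARTA cells. Every group shares the OT1 receptor, the CD45.1 marker and the tumour line. Host strain, age, time of sampling, pooling of animals and the CD4 T cells that the hosts themselves held are not given in the sources used here. Nor do the labels tie each library to its own animal; p-values measure the spread between these samples only, which may be technical.

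Broken DNA is repaired along several routes. Homologous recombination copies the lost sequence from a sister chromatid and therefore works in cells that are replicating or have replicated their DNA, and the Fanconi anaemia pathway removes crosslinks between the strands and protects stalled replication forks. End joining religates broken ends in any phase of the cell cycle and also completes antigen receptor rearrangement in developing lymphocytes. CD8 T cells that meet antigen divide rapidly, and many recombination and Fanconi genes are known as genes of cycling cells, whereas Ku and the ATM kinase are known to be present in resting lymphocytes too.

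With SMARTA cells present, OT1 cells held less transcript of the exonuclease gene Exo1, of Bard1, the partner of Brca1, and of Fanca, a subunit of the Fanconi core complex. These 3 of 39 members fell at an adjusted p under 0.05 and none rose (edgeR quasi-likelihood test, Benjamini-Hochberg adjustment over 15896 genes), against 1.63% of all tested genes called lower, 1.52% called higher and 3.15% called in either direction. Without adjustment 19 members had a p under 0.05, each of them lower with SMARTA, and 9.37% of all tested genes were lower at that threshold. In 20 of the 39 members, or 51.3%, every library with SMARTA lay below every library without, which held for 10.5% of all tested genes; in no member did every library with SMARTA lie above, which held for 8.73% of all tested genes. The log2 fold change, with minus without SMARTA, was negative in 35 of the 39 members, against 50.2% of all tested genes, and its median was −0.75 over the members and 0.00 over all tested genes. The members do not vary independently of each other, so these counts describe the list and were not tested. The list was also chosen with earlier results of these data known. Over 106 other tested repair genes the median log2 fold change was −0.23.

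The 3 calls depended on which libraries entered. Of the 7 fits that each leave out 1 library, 2 called Exo1, 2 called Fanca and 1 called Bard1. The number of members called lower was 7 without replicate 1 with SMARTA, where 2.37% of all genes were called lower, 0 without replicate 2 or 3 with SMARTA, 2 without replicate 2 lacking SMARTA and 0 without replicate 1, 3 or 4 lacking SMARTA. The number with every library lower was 20 to 25 in these fits, and the median log2 fold change of the members was −1 to −0.70. The share of all genes with every library lower was not computed for them. With fewer libraries any gene more readily shows no overlap. Over all genes the calls numbered 17 to 907 in these fits, against 500 with all libraries. With DESeq2 in place of edgeR 14 members were called lower and none higher, while 5.78% of all genes were called lower and 5.17% higher.

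To show the sequence around the start of genes that passed the test and of others that did not, promoters are given for 4 members: Bard1 and Fanca, which fell, Brca2, which did not pass although its libraries with SMARTA all lay below the others, and Fancg, whose groups overlapped. RefSeq windows of 300 bases, from 250 before to 50 after the annotated start on GRCm38.p6, were matched by symbol for 31 of the 39 members; Exo1, Fancd2, H2afx, Nbn, Prkdc, Rad50, Rad54b and Xrcc2 had no window. Both strands were searched for an E2F site, any of TTTCCCGC, TTTCGCGC, TTTGCCGC and TTTGGCGC, for the CCAAT box of NF-Y, and for TTTGAA, the cell cycle genes homology region; E2F proteins and NF-Y are known regulators of cell cycle genes. In the sequences below, read 5′ to 3′ along the strand of the gene, capitals mark E2F sites and CCAAT boxes on either strand. The windows are chr1:71102923-71103222 (minus strand) for Bard1, chr8:123318527-123318826 (minus strand) for Fanca, chr5:150522371-150522670 (plus strand) for Brca2 and chr4:43010252-43010551 (minus strand) for Fancg.
Bard1: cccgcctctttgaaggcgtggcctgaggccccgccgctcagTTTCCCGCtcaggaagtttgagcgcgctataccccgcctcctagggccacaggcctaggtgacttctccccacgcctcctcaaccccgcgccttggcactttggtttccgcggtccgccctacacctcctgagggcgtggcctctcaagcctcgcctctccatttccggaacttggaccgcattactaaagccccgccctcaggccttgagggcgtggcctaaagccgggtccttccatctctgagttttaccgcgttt
Fanca: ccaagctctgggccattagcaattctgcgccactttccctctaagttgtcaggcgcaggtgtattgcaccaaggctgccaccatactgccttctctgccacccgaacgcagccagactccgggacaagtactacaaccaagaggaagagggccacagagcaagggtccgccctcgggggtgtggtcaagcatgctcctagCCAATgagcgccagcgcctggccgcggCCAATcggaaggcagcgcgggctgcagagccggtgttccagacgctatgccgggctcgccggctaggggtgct
Brca2: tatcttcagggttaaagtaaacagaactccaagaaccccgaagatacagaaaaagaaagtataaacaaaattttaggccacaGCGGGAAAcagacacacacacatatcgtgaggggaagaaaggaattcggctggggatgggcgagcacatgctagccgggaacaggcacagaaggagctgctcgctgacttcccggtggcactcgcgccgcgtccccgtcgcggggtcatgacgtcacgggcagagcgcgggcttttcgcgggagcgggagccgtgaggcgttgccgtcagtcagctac
Fancg: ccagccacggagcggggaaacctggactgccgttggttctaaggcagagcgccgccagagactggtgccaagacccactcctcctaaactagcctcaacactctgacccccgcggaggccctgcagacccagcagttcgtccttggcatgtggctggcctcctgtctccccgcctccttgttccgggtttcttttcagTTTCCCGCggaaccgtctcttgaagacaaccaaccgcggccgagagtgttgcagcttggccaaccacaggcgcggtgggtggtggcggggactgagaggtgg

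The Bard1 and Fancg windows hold the same E2F letters, TTTCCCGC, beginning 209 bases before the start in Bard1 and 52 before it in Fancg. Brca2 holds that site on the opposite strand, 168 bases before the start. Fanca holds no E2F match and a pair of CCAAT boxes. Of the 31 members with a window, 7 held an E2F match, or 22.6%, against 2.6% of the 27025 genes with a RefSeq window. These were Bard1, Brca2, Chek2, Fancg, Msh6, Rad51c and Xrcc6. Of these 7, 5 had every library with SMARTA lower, and of the 24 members with a window and no match, 11 did. That held for 10.5% of all tested genes, and the share among all genes with a match was not computed. Members with no window are in neither count. A CCAAT box was found in 20 of 31 members, or 64.5%, against 41.1% of genes, and TTTGAA in 1, or 3.23%, against 20.2%. The windows were not matched on base composition, and a match is a string of letters, not a bound site. Only exact letters inside the window were counted, so a member with no match may still hold a similar site. Whether a match goes with the fold change of a gene was not tested.

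**Figure D1:**
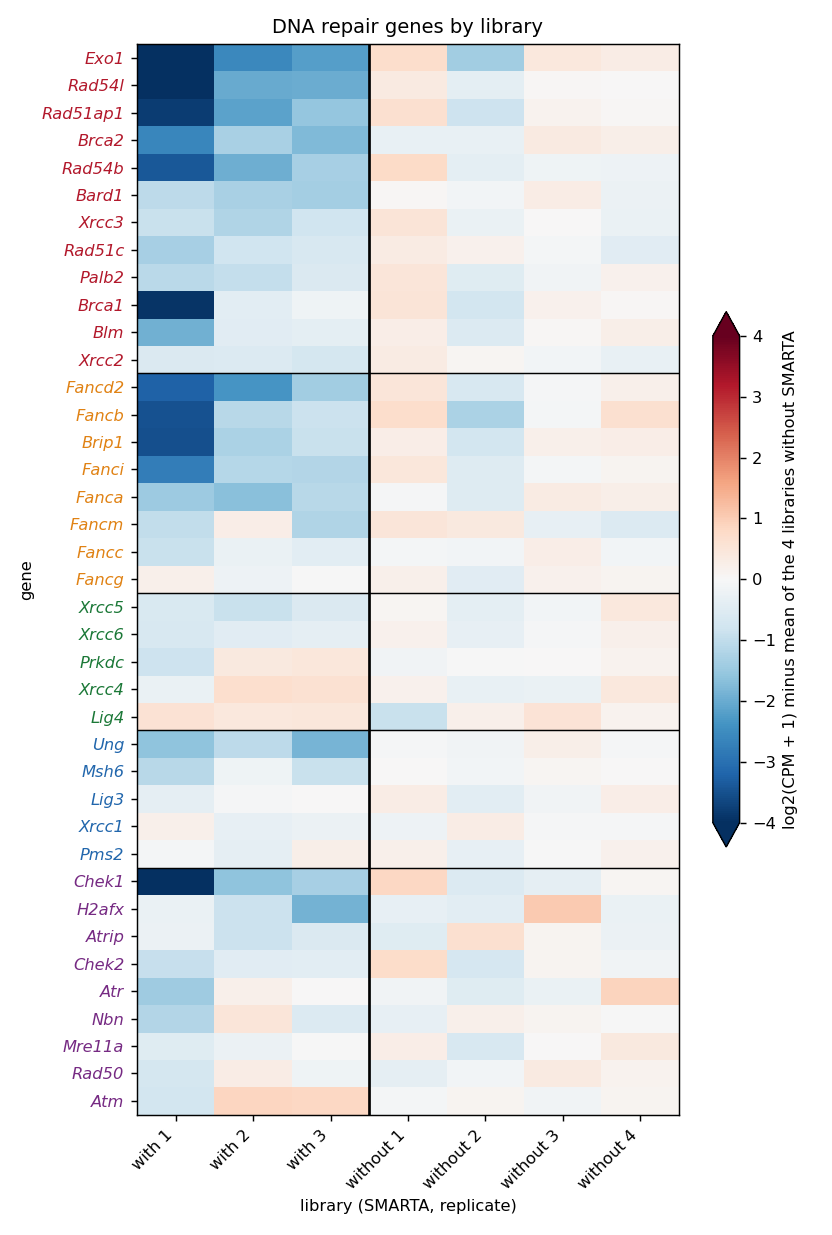
Each row is a member and each column a library, with SMARTA left of the line and without SMARTA right of it; colour gives log2(CPM + 1) minus the mean of the 4 libraries without SMARTA, cut off at the ends of the colour bar. Recombination and Fanconi genes were mostly below that mean in all 3 libraries with SMARTA and often lowest in replicate 1, while most end joining genes lay near it.

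Libraries held 38092722 to 49438357 counts, and a gene with no count lay below 0.0607 to 0.0881 CPM (the level of 3 counts; CPM are counts scaled to the size of the library and by TMM, the trimmed mean of M values), a limit that covers counting error only. Markers fitted the labelled cell type, with Cd8a at 1027 to 1947 CPM and Cd4 at 0.65 to 8.47 CPM over the 7 libraries. Replicate 1 with SMARTA stood apart. The summed erythroid markers (8 of 9 list entries found) reached 5058 CPM in it, against 10.2 and 239 CPM in replicates 2 and 3 with SMARTA and 33.6 to 220 CPM without SMARTA. Its genes with exons over 5 kilobases, which include 26 of the 39 members, had a median log2 deviation of −0.22 from the other libraries with SMARTA, and its genes under 2 kilobases one of 0.19. The value for short genes was not particular to it. Replicate 1 lacking SMARTA also deviated by 0.19 for genes under 2 kilobases, and by −0.07 for those over 5 kilobases, from the other libraries without SMARTA. Replicates 2 and 3 with SMARTA each deviated by 0.19 for genes over 5 kilobases, measured against libraries that include replicate 1. Among summed markers of other cells, fibroblast and endothelial markers (8 entries, mostly Pecam1) did not overlap between groups. They lay at 155 to 221 CPM with and 82.0 to 133 CPM without SMARTA. The sums that follow overlapped between groups. Melanoma markers (8 entries, mostly Gpnmb, with Tyr, Mitf and Sox10 at 0 to 0.169 CPM with SMARTA) lay at 60.1 to 129 CPM with and 31.1 to 110 CPM without. Neutrophil markers (8 entries, Retnlg at 0 in every library with SMARTA) lay at 7.56 to 12.4 CPM with and 6.03 to 47.6 CPM without. Summed CD4 T cell markers lay at 354 to 1239 CPM with and 492 to 690 CPM without, macrophage markers at 247 to 373 CPM with and 179 to 339 CPM without, dendritic cell markers at 191 to 643 CPM with and 135 to 340 CPM without, and B cell markers at 13.2 to 65.9 CPM with and 5.30 to 39.5 CPM without. The part of these cells in the results on repair genes was not tested. Of the 39 members, 19 share exon bases with another gene on either strand, from 0.301% of their exon bases in Brca2 to 49.9% in Atrip; among them are Rad54l (15.4%, with Lrrc41), Fanci (16%, with Polg), Fancc (18.6%) and Lig3 (25.1%, with Rffl). The counting did not use strand and leaves out reads that match both genes, so these values are less certain. The other 20, Exo1 and Bard1 among them, share none.

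Values below are CPM scaled by TMM, in the order of replicates 1, 2 and 3 with SMARTA and replicates 1, 2, 3 and 4 without. Homologous recombination begins with resection of the broken ends, and Exo1, a nuclease that digests the 5′ strand and also serves mismatch repair, had the most negative log2 fold change of the 39 members in the edgeR fit of all 7 libraries. Exo1 lies on chromosome 1 from 175880581 to 175913489 (GRCm38) and had 1.27, 5.37 and 7.17 CPM with SMARTA, against 60.3, 13.4, 49.9 and 45.2 CPM without. Every library with SMARTA was below every library without, and replicate 2 lacking SMARTA was the nearest to them. Exo1 averaged 4.60 ± 3.02 CPM with SMARTA and 42.2 ± 20.2 CPM without (SD, n = 3 and 4). It fell by 3.20 ± 0.70 on the log2 scale (SE; edgeR adjusted p = 0.0485), which is 9.20-fold.

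Brca1 and Bard1 form a ubiquitin ligase that promotes resection and the later steps of recombination. Bard1, on chromosome 1 from 71027498 to 71103146, had 1.42, 1.04 and 0.97 CPM with SMARTA, against 4.23, 3.67, 5.18 and 3.25 CPM without. The groups were well apart, though the values with SMARTA rest on 67, 43 and 33 counts. It fell by 1.83 ± 0.39 on the log2 scale (SE; edgeR adjusted p = 0.0446). Bard1 passed in 6 of the 8 other settings that tested it. It did not pass with no filter (edgeR adjusted p = 0.0713) or with the replicate block (edgeR adjusted p = 0.375). Its partner Brca1 had 1.5, 27.5 and 33.1 CPM with SMARTA, against 53.7, 21.8, 42.2 and 38.6 CPM without. Here the groups overlapped, and only replicate 1 with SMARTA was far below the rest. The log2 fold change of Brca1 was −0.92 ± 0.80 (edgeR adjusted p = 0.608), and −0.38 without that library.

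Palb2 joins Brca1 to Brca2, and Brca2 acts on the resected single-stranded DNA. Brca2 had 0.593, 2.91 and 1.85 CPM with SMARTA, against 6.88, 6.93, 11.5 and 10.3 CPM without, with no overlap. Its log2 fold change was −2.32 ± 0.55 (SE, edgeR adjusted p = 0.0602), and it passed without replicate 1 with SMARTA, at −1.90 (edgeR adjusted p = 0.0411). That was the only 1 of the 7 fits lacking 1 library in which Brca2 passed. Palb2 had 13.8, 15.3 and 19.8 CPM with SMARTA, against 42.6, 21.3, 27.1 and 33.9 CPM without, again with no overlap. Its log2 fold change of −0.94 ± 0.30 did not pass (edgeR adjusted p = 0.135).

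Rad51c, Xrcc2 and Xrcc3 belong to one family of recombination mediators. Rad51c had 3.50, 5.54 and 6.23 CPM with SMARTA, against 13.4, 11.9, 9.77 and 7.38 CPM without. Xrcc2 had 16.7, 16.8 and 15.1 CPM with SMARTA, against 31.9, 26.6, 23.4 and 20.3 CPM without. Xrcc3 had 8.94, 7.06 and 9.52 CPM with SMARTA, against 25.5, 14.2, 17.7 and 14.3 CPM without. In these 3 genes the groups did not overlap and replicate 1 with SMARTA was not set far apart from replicates 2 and 3. Their log2 fold changes were smaller than that of Exo1, at −1.06 ± 0.35, −0.66 ± 0.25 and −1.07 ± 0.31 (edgeR adjusted p = 0.143, 0.197 and 0.101), and none passed.

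Rad51ap1 helps to capture the intact duplex, and Rad54l and Rad54b are DNA translocases that drive the exchange of strands. Rad54l had 0.403, 21.2 and 22.0 CPM with SMARTA, against 115, 67.5, 92.5 and 90.0 CPM without. All 3 libraries with SMARTA were below the others, but replicate 1, with 19 counts, lay far under replicates 2 and 3, which had 881 and 750. The log2 fold change of Rad54l was −2.65 ± 0.97 (SE, edgeR adjusted p = 0.189), and without replicate 1 with SMARTA it was −2.09 and passed (edgeR adjusted p = 0.00839). Rad54l passed in only this 1 of the 7 fits lacking 1 library. Rad51ap1 had 2.65, 10.6 and 16.5 CPM with SMARTA, against 78.1, 27.4, 54.5 and 51.8 CPM without. Its log2 fold change was −2.42 ± 0.61 (edgeR adjusted p = 0.0707). Without replicate 1 with SMARTA it was −1.98 and passed (edgeR adjusted p = 0.0395), again in only 1 of the 7 fits lacking 1 library. Rad54b had 1.14, 4.84 and 7.90 CPM with SMARTA, against 37.2, 16.2, 18.9 and 18.7 CPM without. The groups of Rad54b did not overlap, its log2 fold change was −2.30 ± 0.63 (edgeR adjusted p = 0.0879), and 35.9% of its exon bases lie under other genes, mostly Fsbp on the same strand.

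The helicase Blm, which resolves crossed DNA molecules, had 5.97, 18.3 and 19.2 CPM with SMARTA, against 31.0, 17.4, 26.3 and 30.5 CPM without. Its groups overlapped through replicate 2 lacking SMARTA, and its log2 fold change was −0.86 ± 0.43 (edgeR adjusted p = 0.331). Over the 12 recombination members the median log2 fold change was −1.45, 2 were called lower, and 10 had every library with SMARTA below the others. Beside these values, the summed CPM of 30 DNA replication genes was 1596, 2302 and 2253 with SMARTA, against 7440, 3679, 6134 and 5915 without, and 15 of the 30 were called lower and none higher. The summed CPM of 30 mitosis genes was 264, 783 and 1231 with SMARTA, against 4144, 2151, 3761 and 3531 without, and 9 of them were called lower. Of all tested genes, 1.63% were called lower, 1.52% were called higher, and 10.5% had every library with SMARTA below the others. The part of cell cycling in the results on repair genes was not tested. In a bulk library, fewer cells that express a gene and less of its RNA per cell cannot be told apart.

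**Figure D2:**
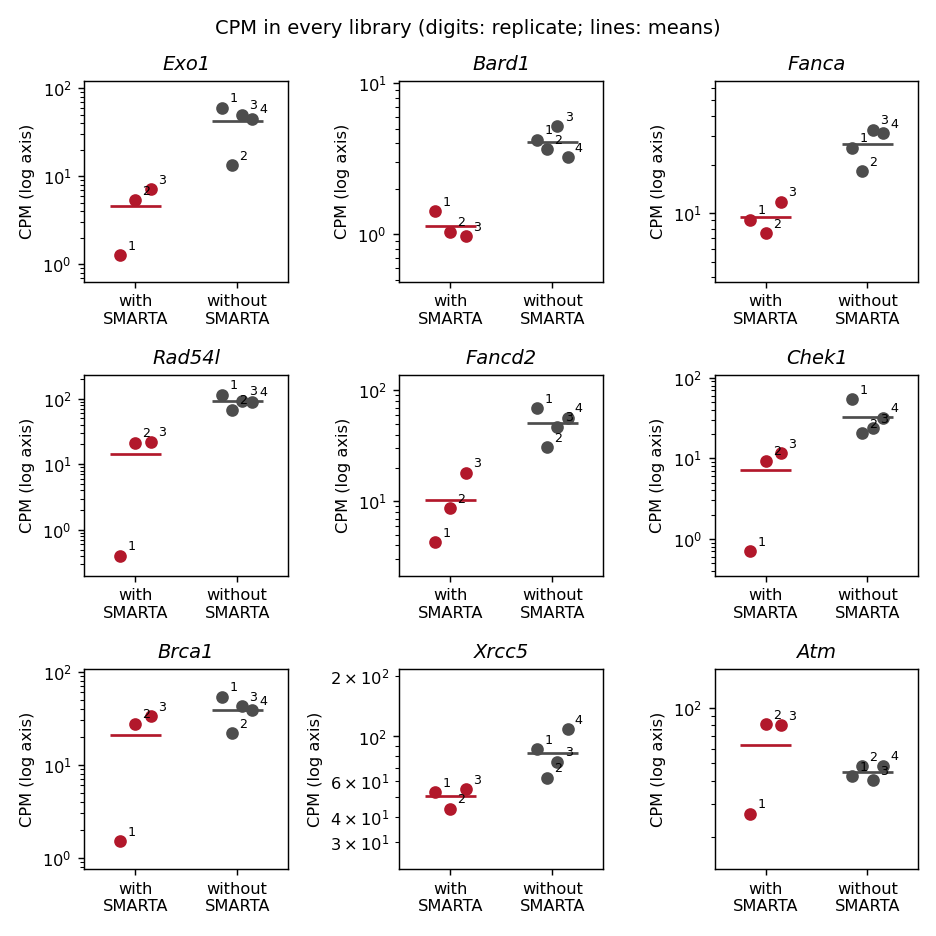
Points are single libraries, numbered by replicate, on a log axis of CPM, with SMARTA in red at the left and without SMARTA in grey at the right of each panel; lines are means. Exo1, Bard1, Fanca, Rad54l, Fancd2, Chek1 and Xrcc5 show no overlap, whereas in Atm replicate 1 with SMARTA lies below and replicates 2 and 3 above all libraries without, and in Brca1 replicates 2 and 3 lie within their range.

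The Fanconi core complex, which holds Fanca, Fancb, Fancc and Fancg and is anchored to DNA by the translocase Fancm, attaches ubiquitin to Fancd2 and Fanci. Fanca, on chromosome 8 from 123268300 to 123318576, had 9.07, 7.49 and 11.8 CPM with SMARTA, against 25.5, 18.2, 33.0 and 31.3 CPM without. The groups did not overlap and no library of either group stood apart. Fanca averaged 9.45 ± 2.17 CPM with SMARTA and 27.0 ± 6.68 CPM without (SD, n = 3 and 4), and fell by 1.51 ± 0.31 on the log2 scale (SE; edgeR adjusted p = 0.0421). Of its exon bases 10.5% are shared with Zfp276 on the opposite strand. Fancg, another core subunit, had 66.5, 49.1 and 56.6 CPM with SMARTA, against 65.5, 41.3, 64.5 and 61.3 CPM without. The ranges of Fancg covered each other, the log2 difference being −0.02 ± 0.23 (edgeR adjusted p = 0.978), whose sign turned in 1 of 9 other settings and in 4 of the 7 fits lacking 1 library.

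Fancc had 18.3, 28.5 and 25.3 CPM with SMARTA, against 32.7, 32.2, 42.0 and 32.3 CPM without, a gap with no overlap and a log2 difference of −0.53 ± 0.24 (edgeR adjusted p = 0.289). Fancb, on the X chromosome, had 0, 4.26 and 5.29 CPM with SMARTA, against 17.2, 3.74, 9.66 and 16.7 CPM without. Its groups overlapped, and the 0 counts in replicate 1 with SMARTA allow a level of up to 0.0636 CPM. Its log2 fold change was −1.90 ± 1.21 (edgeR adjusted p = 0.466). Fancm, between 2.85 and 11.3 CPM in all libraries, overlapped as well (log2 fold change −0.63, edgeR adjusted p = 0.586).

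Fancd2 and Fanci form the clamp that the core complex modifies. Fancd2 had 4.28, 8.62 and 18.1 CPM with SMARTA, against 69.0, 30.7, 47.0 and 56.8 CPM without. Fanci had 5.38, 18.5 and 18.2 CPM with SMARTA, against 58.4, 29.2, 39.9 and 45.5 CPM without. Both had no overlap, and in both replicate 1 with SMARTA was the lowest library and replicate 2 the lowest of those without. Fancd2, at −2.30 ± 0.51 on the log2 scale, missed the threshold narrowly (edgeR adjusted p = 0.0503) and passed in 8 of 9 other settings and in 1 of the 7 fits lacking 1 library. For Fanci the log2 fold change was −1.63 ± 0.45 (edgeR adjusted p = 0.0941). Brip1, a helicase that binds Brca1, had 2.10, 14 and 18.5 CPM with SMARTA, against 41.9, 20.5, 40.1 and 42.2 CPM without. Its libraries with SMARTA also lay below all others, by −1.65 ± 0.64 on the log2 scale (edgeR adjusted p = 0.212). Over the 8 Fanconi members the median log2 fold change was −1.57. Of the 8, 1 was called lower and 5 had every library with SMARTA lower, against 1.63% and 10.5% of all tested genes.

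**Figure D3:**
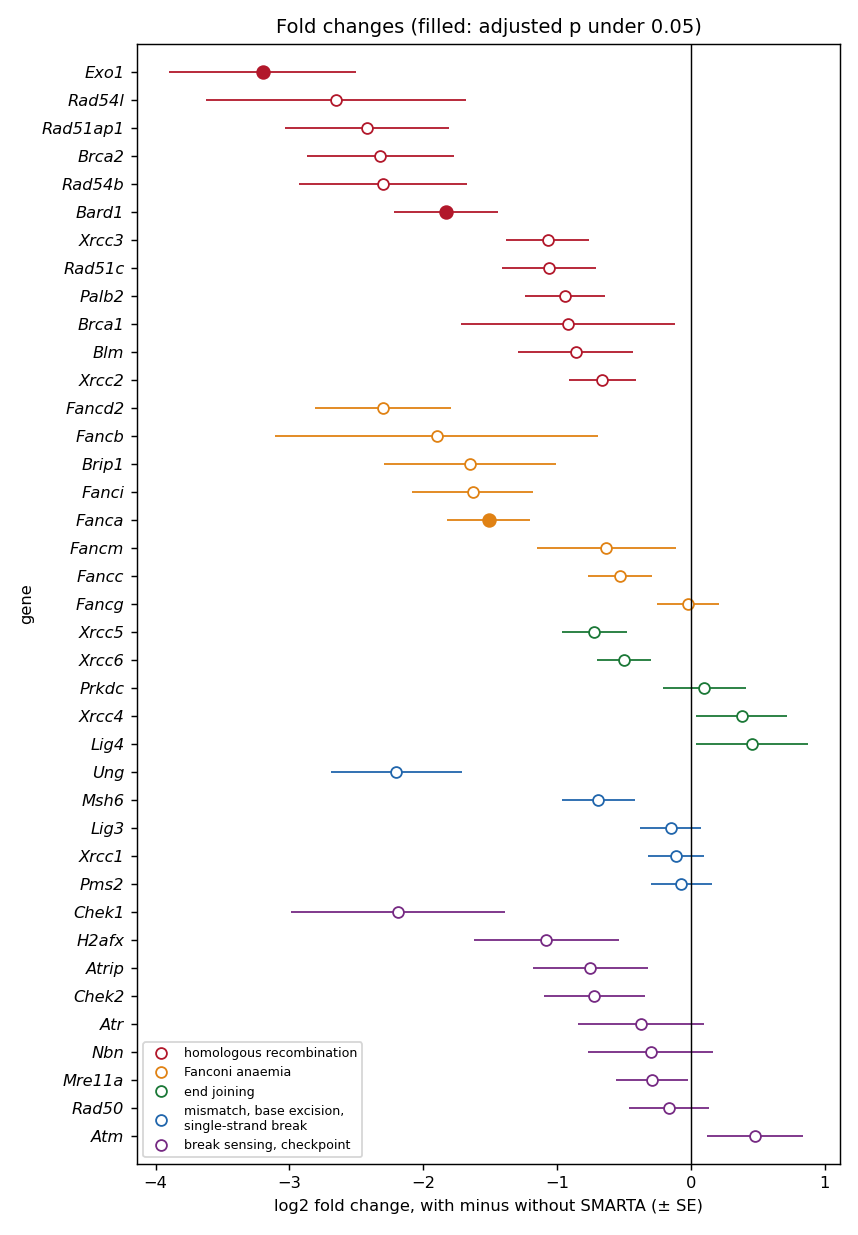
Points are log2 fold changes, with minus without SMARTA, from the edgeR fit of all 7 libraries, bars are standard errors, colours are classes of members, and filled points passed the adjusted p threshold. Recombination and Fanconi genes run from −3.20 to −0.02, and the 4 genes above 0 are Prkdc, Xrcc4, Lig4 and Atm.

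End joining starts with the Ku heterodimer of Xrcc5 and Xrcc6, which binds DNA ends and recruits the kinase subunit Prkdc; the ends are sealed by Lig4 with its partner Xrcc4. Xrcc5 had 52.9, 43.7 and 54.7 CPM with SMARTA, against 86.3, 62.3, 74.9 and 109 CPM without. Xrcc6 had 64.6, 74.4 and 78.0 CPM with SMARTA, against 114, 80.9, 97.9 and 117 CPM without. Both Ku genes were lower in all libraries with SMARTA, by a small amount: their log2 fold changes were −0.72 ± 0.24 and −0.50 ± 0.20 (edgeR adjusted p = 0.144 and 0.222), and neither passed. Prkdc had 31.6, 74.1 and 77.2 CPM with SMARTA, against 51.4, 56.0, 57.7 and 61.9 CPM without, so that replicate 1 lay below and replicates 2 and 3 above every library without. Its log2 fold change was 0.10 ± 0.31 (edgeR adjusted p = 0.902) and turned to −0.06 with library totals in place of TMM. Xrcc4 had 11.8, 23.8 and 22.6 CPM with SMARTA, against 16.3, 11.6, 11.8 and 19.8 CPM without, and its log2 fold change was 0.38 ± 0.34 (edgeR adjusted p = 0.612). Lig4, at 8.05, 7.18 and 7.23 CPM with SMARTA, against 2.25, 6.02, 7.84 and 5.61 CPM without, overlapped too, at 0.46 ± 0.42 on the log2 scale (edgeR adjusted p = 0.624). The 5 end joining members had a median log2 fold change of 0.10 and no call by edgeR (2, Xrcc5 and Xrcc6, were lower at an unadjusted p under 0.05, against 9.37% of all genes). That median was 0.40 without replicate 1 with SMARTA, −0.06 without replicate 2 and −0.11 without replicate 3 with SMARTA, and −0.06 with library totals in place of TMM.

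Ung removes uracil from DNA, and it was the one member outside recombination and the Fanconi pathway close to the threshold. Ung had 0.784, 1.66 and 0.50 CPM with SMARTA, from 37, 69 and 17 counts, against 4.37, 3.96, 5.48 and 4.30 CPM without. The groups did not overlap, and the log2 fold change was −2.20 ± 0.49 (edgeR adjusted p = 0.0511). Msh6, which recognises mismatches, had 19.2, 37.5 and 22.4 CPM with SMARTA, against 42.6, 39.3, 44.9 and 43.2 CPM without. Its log2 fold change was −0.69 ± 0.27 (edgeR adjusted p = 0.217), with replicate 2 with SMARTA close to the libraries without. Xrcc1, the scaffold of single-strand break repair, had 103, 71.4 and 74.8 CPM with SMARTA, against 77.5, 109, 86.0 and 86.9 CPM without. Its ligase partner Lig3 had 55.1, 68.2 and 70.8 CPM with SMARTA, against 86.2, 52.3, 64.3 and 84.7 CPM without. Xrcc1, Lig3 and Pms2, the nuclease subunit of mismatch repair, had overlapping groups and log2 fold changes of −0.11 ± 0.21, −0.15 ± 0.23 and −0.07 ± 0.23 (edgeR adjusted p = 0.841, 0.796 and 0.916).

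Atm answers to double-strand breaks through Chek2, and Atr with its partner Atrip answers to exposed single strands through Chek1. Chek1 had 0.699, 9.37 and 11.5 CPM with SMARTA, against 54.3, 20.6, 23.6 and 31.9 CPM without. It was the only checkpoint member without overlap; its log2 fold change was −2.19 ± 0.80 (SE; edgeR adjusted p = 0.189), and replicate 1 with SMARTA, with 33 counts, was again the lowest library. Chek2 lay between 9.49 and 14.1 CPM with SMARTA and between 11.5 and 32.5 CPM without (log2 fold change −0.72, edgeR adjusted p = 0.363). Atm had 26.6, 81.2 and 80.5 CPM with SMARTA, against 42.4, 48.2, 40.4 and 48.4 CPM without. Replicates 2 and 3 with SMARTA were above every library without and replicate 1 below them. The log2 fold change of Atm was 0.48 ± 0.36 (edgeR adjusted p = 0.54), and without replicate 1 with SMARTA it was 0.83 and Atm was called higher (edgeR adjusted p = 0.0466). Atm was called in only this 1 of the 7 fits lacking 1 library. Atr, at 15.9 to 50.9 CPM with SMARTA and 31.1 to 84.0 CPM without, and Atrip, at 2.17 to 3.92 and 3.14 to 7.93 CPM, overlapped and were not called (log2 fold changes −0.37 and −0.75). Of the exon bases of Atrip, 49.9% are shared with a gene model on the same strand.

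Mre11a, Rad50 and Nbn form the complex that senses broken ends. Mre11a had 54.9, 64.8 and 75.5 CPM with SMARTA, against 93.1, 48.3, 76.6 and 99.7 CPM without, with overlap and a log2 difference of −0.29 ± 0.27 (edgeR adjusted p = 0.647). Rad50 and Nbn overlapped as well, with log2 fold changes of −0.16 and −0.30, and both turned to above 0 without replicate 1 with SMARTA, at 0.06 and 0.05. H2afx encodes the histone variant that is phosphorylated around breaks and had 14, 8.96 and 3.88 CPM with SMARTA, against 13.3, 12.5, 36.2 and 13.9 CPM without. Its groups overlapped, replicate 3 lacking SMARTA stood above all others, and the log2 fold change was −1.08 ± 0.54 (edgeR adjusted p = 0.338). The 9 members of this class had a median log2 fold change of −0.37 and no call by edgeR (1, Chek1, was lower at an unadjusted p under 0.05, against 9.37% of all genes). That median was −0.20 without replicate 1 and −0.66 without replicate 2 with SMARTA.

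**Figure D4:**
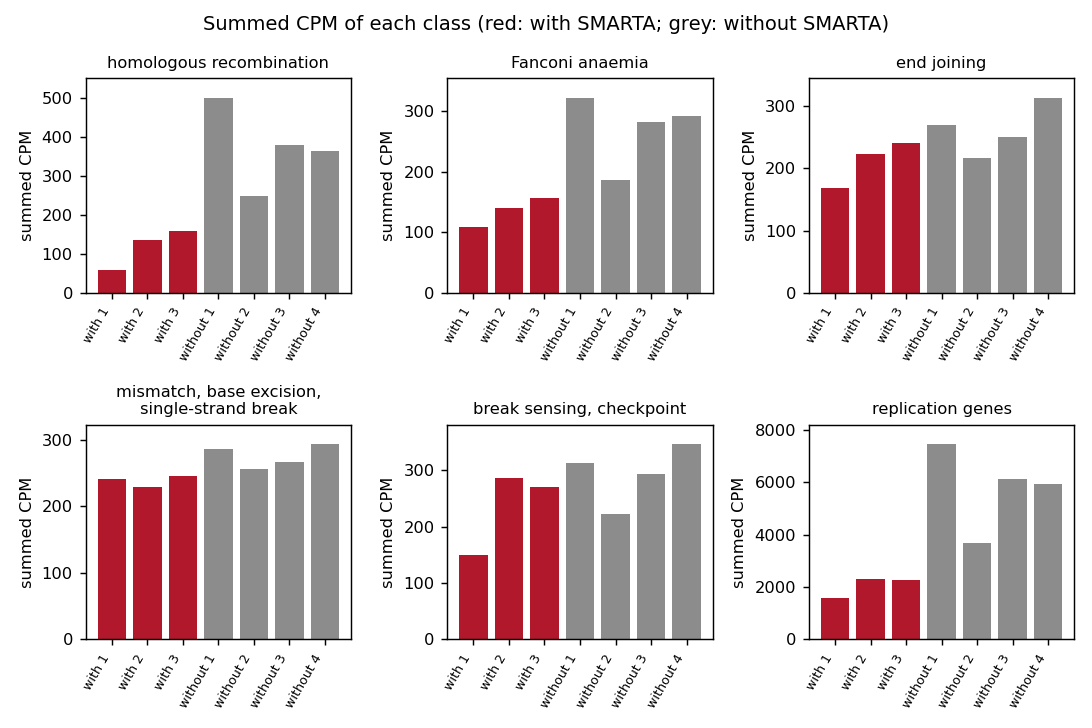
Bars are summed TMM-scaled CPM per library for the 5 classes of members and for 30 replication genes, with SMARTA in red and without SMARTA in grey. The recombination sum was 57.8, 136 and 160 CPM with SMARTA, against 500, 248, 379 and 364 CPM without, and the class of mismatch, base excision and single-strand break repair lay between 230 and 246 CPM with and 256 and 293 CPM without.

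Levels differed widely between members when divided by exon length. The Ku genes were highest on this scale in both groups: Xrcc5 averaged 19.7 CPM per kilobase with SMARTA and 32.5 without, and Xrcc6 averaged 16.2 and 22.9. Brca2 was the lowest, at 0.131 CPM per kilobase with SMARTA and 0.654 without, and Bard1 stood near it with 0.202 and 0.721. In the order of levels per kilobase, Rad54l stood 23rd of 39 with SMARTA and 7th without, Exo1 35th and 18th, and Atm 11th and 22nd. Xrcc1, Fancg and Mre11a, all within the first 6 in both groups, had overlapping groups.

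Other repair genes, from 7 lists of 107 genes in all, are set beside the members here, and the difference between them was not tested. Of 106 tested, 4 were called lower and 1 higher, against 1.63% and 1.52% of all tested genes. The log2 fold change was negative in 70, against 50.2% of all tested genes, and its median was −0.23. Among 28 other recombination genes Psmc3ip, a cofactor of strand exchange, fell by 1.75 ± 0.33 (SE; edgeR adjusted p = 0.0363) and the helicase Recql4 by 1.85 ± 0.41 (edgeR adjusted p = 0.049); the median of that list was −0.48. Psmc3ip had 6.74, 6.31 and 7.05 CPM with SMARTA, against 34.3, 15.3, 21.4 and 19.3 CPM without.

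Among 16 other checkpoint genes the fork protection gene Timeless fell by 1.74 ± 0.27 (SE; edgeR adjusted p = 0.0185), at 29.2, 26.9 and 18.4 CPM with SMARTA, against 107, 63.7, 83.8 and 77.9 CPM without. The phosphatase Cdc25c, which starts mitosis, fell by 3.00 ± 0.57 (edgeR adjusted p = 0.0368). Among 14 nucleotide excision repair genes the lesion sensor Ddb2 rose by 0.88 ± 0.19 (edgeR adjusted p = 0.0481), at 80.5, 69.2 and 87.4 CPM with SMARTA, against 46.1, 43.3, 46.3 and 36.1 CPM without, and that list had a median of 0.10. None of the 14 other Fanconi, 11 tested end joining, 5 mismatch repair and 18 base excision repair genes was called, with medians of −0.16, −0.15, −0.05 and −0.44. Among those with the smallest p were Ube2t and Fancf (log2 fold changes −1.30 and −1.49), Tdp1 and Polq (−0.84 and −1.63), Pms1 (−0.15), and Tdg and Apex1 (−0.98 and −1.63), with edgeR adjusted p from 0.0562 to 0.84. Without replicate 2 or 3 with SMARTA, or without replicate 1, 3 or 4 lacking it, none of these 106 genes was called.

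The called genes of the replication list with the smallest p were Gins1, Rrm2, Mcm5 and Mcm7, at log2 fold changes of −2.58, −2.55, −1.84 and −1.51, and those of the mitosis list were Ube2c, Cenpa, Plk1 and Cdca8, at −3.30, −1.94, −2.76 and −2.57. The list medians were −1.75 for replication and −2.34 for mitosis, against −0.75 for the repair members. Whether repair genes differ from these lists was not tested.

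**Figure D5:**
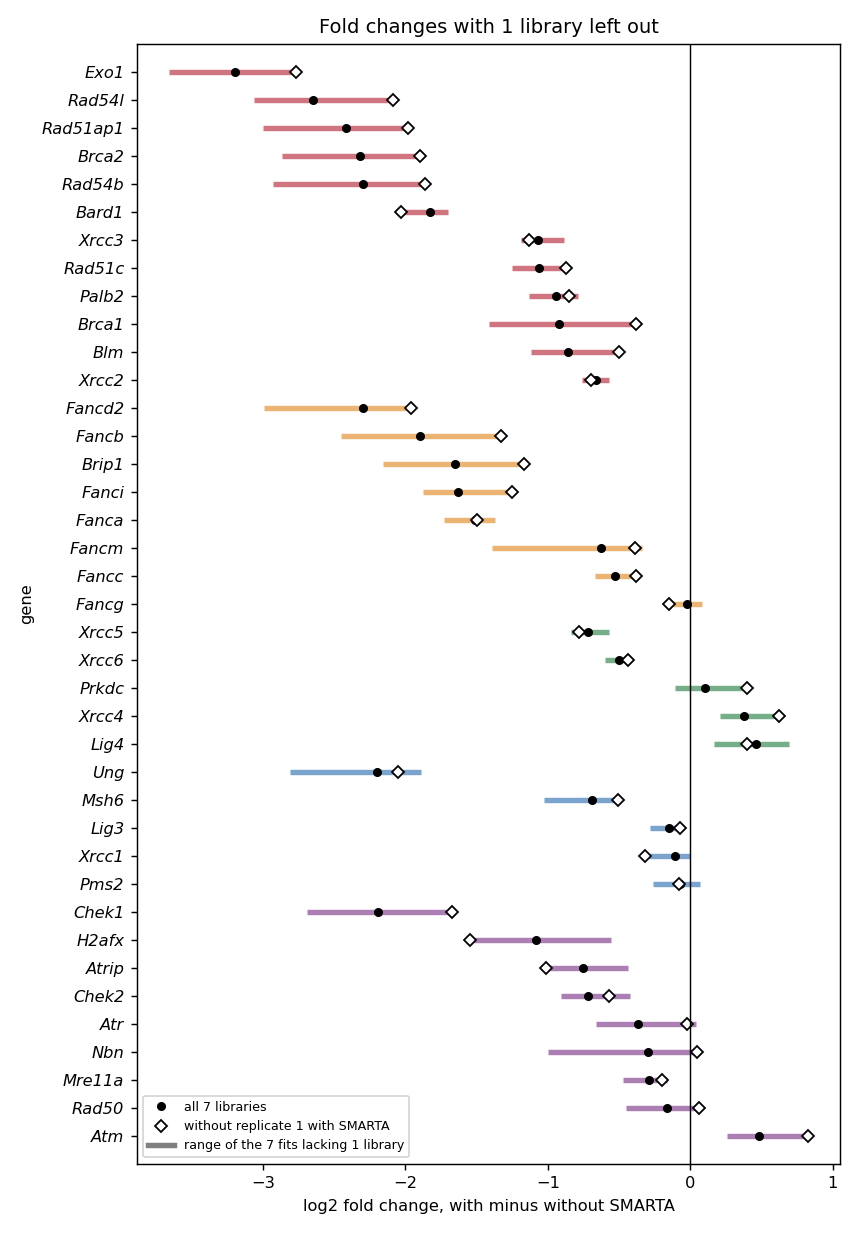
Black points are log2 fold changes with all 7 libraries, coloured lines run over the 7 fits that each leave out 1 library, and diamonds are the fit without replicate 1 with SMARTA. Exo1 runs from −3.66 to −2.77 and Fanca from −1.73 to −1.37, while Fancg, Prkdc, Pms2, Atr, Nbn and Rad50 cross 0.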

How the data were processed

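RNA from sorted cells was amplified with the SMART-seq V4 kit and read in pairs, per the labels' protocols, and the kit does not mark strand. The tools STAR 2.6.0c and featureCounts 1.6.2 and the build GRCm38.p6 stand in the submitters' processing notes. The authors ran featureCounts on pairs by gene name with GENCODE M17 and no strand option, per the file headers; the deposited values are raw counts, not normalized. Reads matching several places or genes were left out by that command's defaults.

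Samples were grouped by title. Counts were tested with edgeR 4.0.16 in R 4.3.3 (filterByExpr, minimum count 10 and minimum total 15; TMM; robust quasi-likelihood, two-sided, no covariate, all 7 libraries), leaving 15896 genes, all 39 members among them. Adjusted p under 0.05 was called; standard errors derive from the fold change and F. Alternatives were relative log expression, library totals, no filter, a filter of CPM 5 in 3 libraries, DESeq2 1.42.0, limma-voom (limma 3.58.1) with and without quality weights, no robust estimation, a block for the replicate number, and fits lacking 1 library each. On simulated counts for these 15896 genes edgeR found 48% of the 4-fold and 3.09% of the 2-fold changes, beside 3 false calls, so the absence of a call does not show the absence of a change. Within groups, no pair of libraries had like counts (chi-square of 93.5 to 444 for each degree of freedom).

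Members, lists, motifs and the printed promoters were chosen with earlier results of these data known. Text names every called member and every member without overlap, then per class the 2 others of highest level per kilobase and the largest positive fold change; from other lists up to 4 called genes, or the 2 of smallest p. Some genes that this rule names are not reported here. The list of erythroid markers had 1 symbol, Ahsp, with no row.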

Additional observations from a re-analysis of the deposited data

Results flagged for a closer look

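Each of the 39 members was checked for 1 of the 4 libraries without SMARTA lying far from the other 3; chance alone flags about 1 in 20 such groups, and 4 members were found. Rad54b, the strand exchange translocase, had 37.2 CPM in replicate 1 lacking SMARTA, against 16.2 to 18.9 CPM in the other 3. Fancc, of the Fanconi core complex, had 42.0 CPM in replicate 3, against 32.2 to 32.7 CPM. Brip1, the helicase, was low in replicate 2 with 20.5 CPM, against 40.1 to 42.2 CPM. H2afx had 36.2 CPM in replicate 3, against 12.5 to 13.9 CPM.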

How the results depend on the processing

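All genes called numbered 500, and 842 with the CPM filter, 1741 with DESeq2, 1537 with quality weights, 0 with the replicate block (1631 at an unadjusted p under 0.05), and 17 to 907 with 1 library left out. Members called lower numbered 3, and 5 with relative log expression or library totals, 7 with the CPM filter or limma-voom, 12 with quality weights, 14 with DESeq2, 0 with the replicate block (10 at an unadjusted p under 0.05) and 0 to 7 with 1 library left out; members called higher numbered 0 to 1 in those fits. Other repair genes called lower numbered 4, and 8 with library totals, 7 with no filter, 14 with the CPM filter, 17 with DESeq2, 18 with quality weights, 0 with the block and 0 to 7 with 1 library left out. Those called higher numbered 1, and 0 with library totals, no filter, no robust estimation or the block, 2 with the CPM filter or quality weights, 4 with DESeq2 and 0 to 3 with 1 library left out. Of all tested genes, 1.63% were called lower, and 1.72% with relative log expression, 2.5% with library totals and 1.06% with no filter. That share was 5.23% with the CPM filter, 1.7% with limma-voom, 4.81% with quality weights and 5.78% with DESeq2. It was 0 with the replicate block and 0.0453% to 2.37% with 1 library left out. The causes were not tested. The median log2 fold change of the members stayed between −0.92 and −0.75 over the other settings. Same-numbered libraries did not deviate together (correlations of −0.14, 0.03 and −0.27). In the group with SMARTA the numbers in the names of the deposited files run 1 above those of the titles. Libraries paired by those file numbers did not deviate together either (−0.09, −0.06 and −0.04). The replicate block used the titles. So few libraries cannot decide whether same-numbered ones share a batch, and the labels do not say. The block also leaves few degrees of freedom to measure the spread. Library totals moved the median of all genes to −0.16 and the share of calls that were higher to 29.1%, against 48.2% with TMM. Signs turned for Fancg (0.03 with the block; −0.15 to 0.08 with 1 library left out), Prkdc (−0.06 with library totals, −0.02 with limma-voom; −0.11 to 0.40), Nbn (0.04 with quality weights; −1 to 0.05), Rad50 (0.01 with quality weights; −0.45 to 0.06), Pms2 (−0.26 to 0.07) and Atr (−0.66 to 0.04), none of them called in any setting. Of 621 values of single members under all settings 545 kept direction and call, 41 gained a call and 20 lost one. Counts of members with every library lower, a summary chosen after seeing the data, were 20 to 22 under other scalings. The share of all genes was not computed for those scalings.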

Other observations

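Of 12 tested genes on a list of targets of the damage-responsive factor p53, 1 was called lower and none higher. Over all tested genes, 1.63% were called lower and 1.52% higher. The log2 fold change was negative in 6 of the 12, against 50.2% of all tested genes, and the median was 0.03. The cell cycle inhibitor Cdkn1a had 16.1, 56.3 and 105 CPM with SMARTA, against 34.5, 72.6, 135 and 37.5 CPM without (log2 fold change −0.24, edgeR adjusted p = 0.892). For Mdm2, the inhibitor of p53, the log2 difference was −0.01 (edgeR adjusted p = 0.993). The one gene called was Gtse1, a protein of G2 and M phase, which fell by 2.01 ± 0.40 (SE; edgeR adjusted p = 0.0406), at 10.2, 19.5 and 26.7 CPM with SMARTA, against 94.3, 43.7, 88.0 and 77.1 CPM without.

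Between the libraries without SMARTA, replicate 2 had the lowest sum in all 5 classes of members, among them recombination genes (248 CPM, against 364 to 500 CPM in the other 3) and end joining genes (217 against 250 to 313 CPM). It was also the lowest of the 4 in sums of replication genes (3679 against 5915 to 7440 CPM), nucleotide excision repair genes (961 against 1145 to 1232 CPM) and CD8 T cell markers (13724 against 15880 to 17376 CPM). These sums are scaled by TMM, and this replicate 2 had the largest TMM factor, 1.113, which lowers all its values. Without TMM, the class of mismatch, base excision and single-strand break repair was lowest in replicate 3 lacking SMARTA (270 CPM, against 285.3 CPM in replicate 2). Nucleotide excision genes Xpc and Ddb2, both lesion sensors, were higher in every library with SMARTA than in any without; Xpc had 81.6, 62.4 and 47.8 CPM with SMARTA, against 25.9, 32.0, 38.2 and 38.7 CPM without, and did not pass (log2 fold change 0.92 ± 0.25, edgeR adjusted p = 0.0881). Xpc was named after its values were seen.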
